A study of Danio rerio with 12 samples.

Results

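The 9 genes described here encode transcription factors (TFs) that divide the head end of the neural plate into regions: *otx2*, *hesx1*, *six3a*, *six3b*, *rx3*, *gbx1*, *gbx2*, *pax2a* and *irx7*. They were chosen by name, as every array feature whose gene symbol in the table that pairs features with genes was one of these, which gave 22 features of 45220 on the array and 9 genes of 13286. The array carried 5 features for *pax2a*, 4 for *otx2*, 3 each for *hesx1* and *six3b*, 2 each for *gbx1* and *irx7*, and 1 each for *six3a*, *rx3* and *gbx2*. Features are called here by their number in the deposited table. *otx2* is the array's symbol for the gene now named *otx2b*, and the other 8 symbols are unchanged.

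All embryos were of the AB strain of zebrafish. Embryos injected with 0.5 pmol of *tbx16* morpholino (MO, an antisense oligomer that blocks use of a transcript) together with 0.25 pmol of *ta* MO are called double morphants, and embryos injected with 0.75 pmol of a standard control MO are called control MO embryos. Both were collected at 90% epiboly (9 hours post fertilisation, hpf) and at shield (6 hpf), which makes 4 groups of 3 samples. A sample was total RNA of about 200 whole embryos, labelled with a single dye for an Agilent zebrafish array of its own. Ta and Tbx16 are T-box TFs of the mesoderm, so the series asks what their joint loss changes at each stage. Because RNA came from pooled whole embryos, fewer cells of a type and less RNA per cell cannot be told apart. No label says whether samples came from separate clutches, so the spread behind each p-value may be technical.

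During gastrulation the neural plate receives signals, among them Wnt, that give its rear part a posterior fate, and the head forms where those signals are low or blocked. Otx2 marks the future forebrain and midbrain, Gbx factors the territory behind them, and the midbrain-hindbrain boundary forms where the territories meet. Six3, Hesx1 and Rx3 act in the most anterior part, which gives rise to the forebrain and eyes.

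Values are log2 array signals as deposited, a difference of 1 being a 2-fold change, and a gene is said to have risen or fallen only if its adjusted p in limma, corrected over all 45220 features, was under 0.05. Array medians lay between 7.06 and 7.07. Of the 22 features, 5 were dim, with a mean under 6.56 (the 40th percentile of all features), namely the *gbx2* feature and *pax2a* features 3899, 20363, 32996 and 35641, and how far such signals lie above background is not given in the sources used here. Levels of different features are not compared, since each has its own probe. The signals of the targeted genes were not lower in double morphants. That of *tbxta* (the current symbol of *ta*) lay between 10.80 and 11.27 in double morphants and 9.14 and 9.44 in control MO embryos at 90% epiboly, and between 11.36 and 11.83 in double morphants and 9.99 and 10.60 in control MO embryos at shield. That of *tbx16* averaged 9.71 in double morphants and 9.34 in control MO embryos at 90% epiboly, and 10.88 in double morphants and 10.35 in control MO embryos at shield. Since a MO need not remove the transcript it binds, the labels are not checked by these levels. At shield, the array numbered 1 held the highest of the 3 values in 14 of the 22 features in double morphants and 18 of 22 in control MO embryos. Results that rest on these arrays are given with and without them. Features of the same gene are not separate readings, and no count of highest arrays over all features is given here. Removing arrays picked for high values enlarges a rise from shield, so calls gained that way are no further evidence. Over all features, shield arrays deviated from their group means in both directions along the stage change of the other kind of embryo. The r was 0.27 for array 1 and -0.27 for array 3 of double morphants, and 0.24 and -0.27 for those of control MO embryos.

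**Figure D1:**
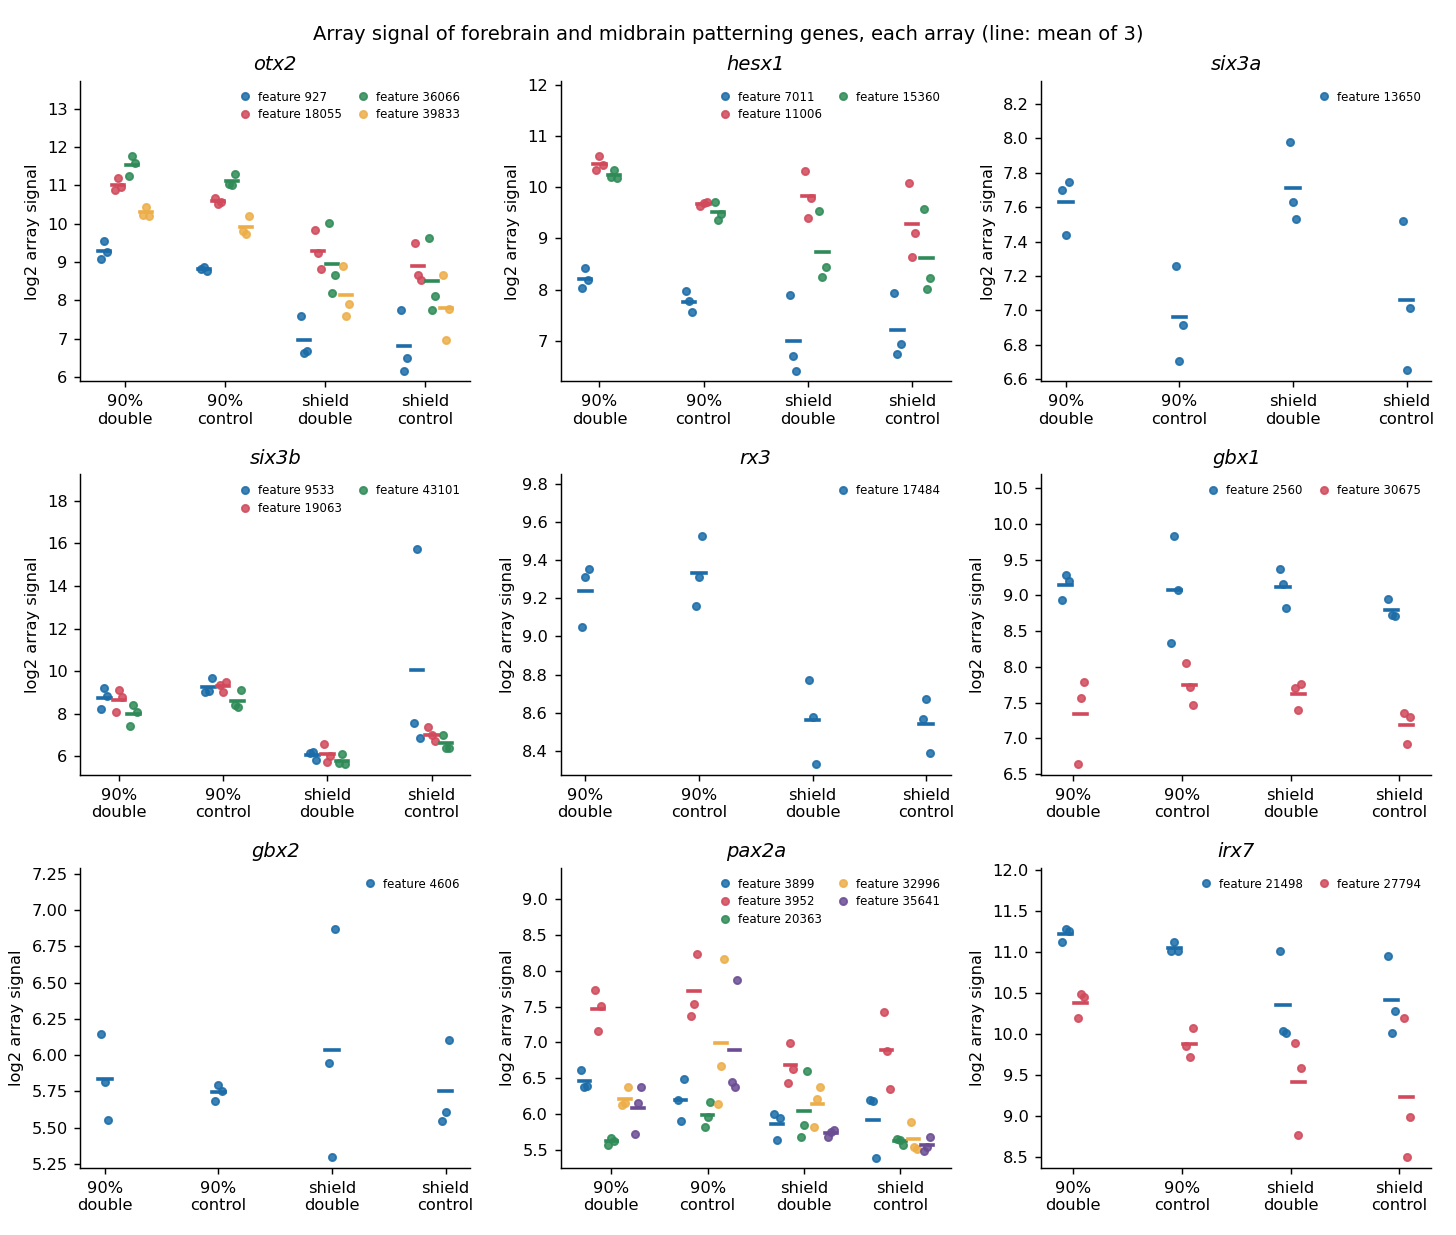
Log2 array signal (vertical axis) of each of the 22 features on each of the 12 arrays, with 1 panel per gene, 1 colour per feature and the groups on the horizontal axis. Points are arrays, 3 per group, and lines are group means. *otx2* and *six3b* features 19063 and 43101 lay higher on all 90% epiboly arrays than on all shield arrays, and the value of 15.72 of *six3b* feature 9533 on a single shield control array stands far above the rest of that panel.

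Between shield and 90% epiboly, *otx2* and *six3b* rose most among the 9 genes, *rx3* rose less, and this held in double morphants and in control MO embryos. *hesx1* passed the test only in double morphants and *pax2a* only in control MO embryos, but no feature passed the test of the difference between them (the interaction of stage and MO). *six3a*, *gbx1*, *gbx2* and *irx7* did not pass in either. In double morphants 9 of the 22 features were higher at 90% epiboly and 0 lower, and in control MO embryos 9 were higher and 0 lower, in each case from 4 genes. Over all features, 13.1% passed in double morphants (6.28% as higher) and 12.8% in control MO embryos (5.73% as higher). The median log2 change over the 22 features was 0.82 in double morphants and 0.72 in control MO embryos, against -0.01 and 0.00 over all features. Since features of a gene are not separate readings, genes were also read by their brightest feature. Of the 9 genes, 2 (*otx2* and *rx3*) were then higher and 0 lower in each kind of embryo. Of all genes, 7.89% were higher in double morphants and 7.2% in control MO embryos. The median over the 9 genes was 0.68 in double morphants and 0.39 in control MO embryos, against -0.01 and 0.02 over all genes. The brightest *six3b* feature, with its isolated bright value, did not pass. In double morphants 15 features had all 3 arrays of 90% epiboly above all 3 of shield and 1 had them all below, against 32.8% of all features that did not overlap in either direction. In control MO embryos it was 12 above and 0 below, against 29.3% of all features.

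*otx2*, the homeobox gene whose product sets up the forebrain and midbrain territory, had the best agreement between features among the 6 genes with several (Pearson's r between 0.97 and 0.99 across the 12 arrays, a description only, since the arrays fall into 2 stages). Its brightest feature, 36066, read 11.24, 11.77 and 11.57 on the 90% epiboly arrays of double morphants, against 10.01, 8.19 and 8.67 on their shield arrays. On the control MO arrays it read 11.03, 11.00 and 11.30 at 90% epiboly, against 9.62, 7.75 and 8.12 at shield. All 6 arrays of 90% epiboly lay above all 6 of shield, and the shield arrays numbered 1 were the highest of their groups. The log2 change was 2.57 in double morphants, a 5.95-fold rise (standard error 0.46, adjusted p = 0.00301 from limma), and 2.62 in control MO embryos, a 6.13-fold rise (standard error 0.46, adjusted p = 0.00252 from limma). Features 927, 18055 and 39833 rose by between 1.72 and 2.33 in double morphants and between 1.70 and 2.12 in control MO embryos, and all 3 passed in both. No *otx2* feature lost its call when any 1 of the 12 arrays was left out (highest adjusted p = 0.0185 from limma), and without both shield arrays numbered 1 the change of feature 36066 was 3.10 in double morphants and 3.18 in control MO embryos.

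*six3b*, which encodes a homeodomain repressor needed for the forebrain, also rose, on the 2 features that were free of an isolated bright value. Feature 19063 read 8.10, 9.10 and 8.80 at 90% epiboly in double morphants, against 6.61, 5.75 and 6.01 at shield. On control MO arrays its values were 9.34, 9.03 and 9.51 at 90% epiboly, against 7.37, 6.99 and 6.71 at shield. The stages did not overlap in either kind of embryo. Its log2 change was 2.54 in double morphants (standard error 0.28, adjusted p = 0.00012 from limma) and 2.27 in control MO embryos (standard error 0.28, adjusted p = 0.000251 from limma), and feature 43101 rose 4.48-fold in double morphants and 3.99-fold in control MO embryos. Neither feature lost its call without any 1 array. At shield in double morphants, features 19063 and 43101 averaged 6.12 and 5.81, under the limit given above for dim features. As for the dim features, how far these shield values lie above background is not given.

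The third *six3b* feature, 9533, read 8.21, 9.22 and 8.83 at 90% epiboly in double morphants, against 6.15, 6.19 and 5.83 at shield. These shield values of feature 9533 also lay under the limit for dim features. Its control MO values were 9.01, 9.06 and 9.70 at 90% epiboly, against 7.56, 15.72 and 6.85 at shield. The value of 15.72 ranked 125th of the 45220 features on its array, and 6 features of that array lay more than 4 above both other arrays of the group (0 to 6 over the 12 arrays), while the other *six3b* features read 6.99 and 6.41 there. With this value the changes did not pass the test (2.70 in double morphants with adjusted p = 0.301, and -0.79 in control MO embryos with adjusted p = 0.816, from limma). With the value set to missing, an alternative chosen after it was seen, the changes were 2.70 (adjusted p = 0.000121) and 2.05 (adjusted p = 0.00132, from limma).

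*six3a*, the paralogue of *six3b*, did not share this rise. Its only feature, 13650, read 7.70, 7.44 and 7.74 at 90% epiboly in double morphants, against 7.98, 7.63 and 7.53 at shield. The control MO arrays read 7.26, 6.70 and 6.92 at 90% epiboly, against 7.52, 6.65 and 7.01 at shield. The stages overlapped in both kinds of embryo, and the log2 change was -0.08 in double morphants (95% interval -0.57 to 0.41) and -0.10 in control MO embryos (-0.59 to 0.39). The probe sequences were not used here, so whether either paralogue's probe also binds the other's RNA was not tested.

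*rx3*, the retinal homeobox gene required for the eye field, rose by a smaller amount on its only feature, 17484. It read 9.05, 9.31 and 9.35 at 90% epiboly in double morphants, against 8.77, 8.58 and 8.33 at shield. Control MO embryos had 9.16, 9.31 and 9.53 at 90% epiboly, against 8.57, 8.67 and 8.39 at shield. All 90% epiboly arrays lay above all shield arrays. The log2 change was 0.68 in double morphants, a 1.60-fold rise (standard error 0.17, adjusted p = 0.0209 from limma), and 0.79 in control MO embryos, a 1.73-fold rise (standard error 0.17, adjusted p = 0.0088 from limma). The call in double morphants was lost without shield array 3, 90% epiboly array 2 or 90% epiboly array 3 of double morphants (highest adjusted p = 0.0893), and the call in control MO embryos was kept without any 1 array.

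*hesx1* encodes a homeodomain repressor of the anterior neural plate, and its 3 features gave different sizes of change. Feature 15360 read 10.20, 10.34 and 10.18 at 90% epiboly in double morphants, against 9.53, 8.25 and 8.43 at shield. Its values in control MO embryos were 9.71, 9.37 and 9.48 at 90% epiboly, against 9.58, 8.02 and 8.23 at shield. Shield array 1 of the control MO embryos reached into the range of the 90% epiboly arrays. The log2 change was 1.50 in double morphants (standard error 0.37, adjusted p = 0.0189 from limma) and 0.91 in control MO embryos (standard error 0.37, adjusted p = 0.14 from limma). Feature 7011 changed by 1.21 in double morphants (adjusted p = 0.0398) and 0.57 in control MO embryos (adjusted p = 0.354), and feature 11006 by 0.63 in double morphants (adjusted p = 0.21) and 0.39 in control MO embryos (adjusted p = 0.481), all from limma. In double morphants the call of feature 7011 was lost without 7 of the 12 arrays (highest adjusted p = 0.165) and that of feature 15360 without 4 (highest adjusted p = 0.0819). Without both shield arrays numbered 1, all 3 *hesx1* features passed in double morphants (changes of 0.88 to 1.90) and in control MO embryos (changes of 0.80 to 1.39). These arrays held the highest shield value of their group on all 3 features, so their removal enlarges the rise by itself.

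*irx7*, an Iroquois homeobox gene of the midbrain and hindbrain neural plate, was bright at every stage. Feature 21498 read 11.12, 11.28 and 11.26 at 90% epiboly in double morphants, against 11.01, 10.05 and 10.02 at shield. Control MO embryos had 11.02, 11.13 and 11.02 at 90% epiboly, against 10.96, 10.01 and 10.28 at shield. The 90% epiboly arrays lay above the shield arrays in both, with shield array 1 closest to them each time. The log2 change of 0.86 in double morphants (standard error 0.27, adjusted p = 0.053) and of 0.64 in control MO embryos (standard error 0.27, adjusted p = 0.153, from limma) did not pass. With the replicate block, which here grouped same-numbered samples across stages, feature 21498 passed in double morphants (adjusted p = 0.0394 from limma). Same-numbered samples of different stages did not deviate together (r between -0.20 and 0.08), so that pass is no further evidence of a rise. Feature 27794 changed by 0.97 in double morphants (adjusted p = 0.102) and 0.65 in control MO embryos (adjusted p = 0.294). Without both shield arrays numbered 1, both features passed in both kinds of embryo, with changes of 1.18 and 1.21 in double morphants and 0.91 and 1.13 in control MO embryos. These arrays held the highest shield value of their group on both features, so their removal enlarges the rise by itself.

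*pax2a* encodes the paired-box TF of the midbrain-hindbrain boundary, and its 5 features agreed poorly (r between -0.07 and 0.92 across the 12 arrays). The brightest, 3952, averaged 7.47 ± 0.29 at 90% epiboly and 6.69 ± 0.29 at shield in double morphants, and 7.71 ± 0.46 at 90% epiboly and 6.89 ± 0.53 at shield in control MO embryos (SD, n = 3 each). Its stages were apart in double morphants and overlapped in control MO embryos. Its change of 0.78 in double morphants (adjusted p = 0.0941) and 0.82 in control MO embryos (adjusted p = 0.0808, from limma) did not pass. In control MO embryos the change was 1.09 and passed without both shield arrays numbered 1 (adjusted p = 0.0226 from limma). The control array removed there held the highest shield value of its group, so its removal enlarges the rise by itself. The change also passed with array weights (0.84, adjusted p = 0.0314, from limma). With those weights 9025 of all features were called in control MO embryos, against 5773 in the main fit. The dim features 35641 and 32996 rose in control MO embryos, by 1.33 on feature 35641 (standard error 0.32, adjusted p = 0.0142) and by 1.34 on feature 32996 (standard error 0.38, adjusted p = 0.0321, from limma), where in double morphants they changed by 0.35 (adjusted p = 0.528) and 0.08 (adjusted p = 0.922). Feature 35641 read 6.45, 6.37 and 7.87 on the 90% epiboly arrays of control MO embryos and feature 32996 read 6.14, 6.67 and 8.17, so array 3 was the highest for each. Without that array the change of feature 35641 in control MO embryos was 0.84 and it still passed (adjusted p = 0.0414), and that of feature 32996 was 0.76 and it did not (adjusted p = 0.069). Feature 32996 also lost its call without shield array 2 or 3 of control MO embryos. Features 3899 and 20363 changed by 0.60 and -0.42 in double morphants and by 0.28 and 0.36 in control MO embryos, and neither passed.

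*gbx1* and *gbx2* encode homeodomain TFs of the territory behind the Otx2 domain, and neither passed in either stage comparison. *gbx1* feature 2560 read 8.94, 9.29 and 9.21 at 90% epiboly in double morphants, against 9.37, 9.17 and 8.82 at shield. In control MO embryos it read 8.34, 9.83 and 9.07 at 90% epiboly, against 8.95, 8.72 and 8.71 at shield. The groups overlapped, and the log2 change was 0.03 in double morphants (95% interval -0.60 to 0.66) and 0.28 in control MO embryos (-0.35 to 0.91). Feature 30675 changed by -0.29 in double morphants and 0.55 in control MO embryos, and its r with feature 2560 across the 12 arrays was 0.11. *gbx2*, dim by its mean, read between 5.30 and 6.87 on the 12 arrays, with a change of -0.20 in double morphants and -0.01 in control MO embryos.

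**Figure D2:**
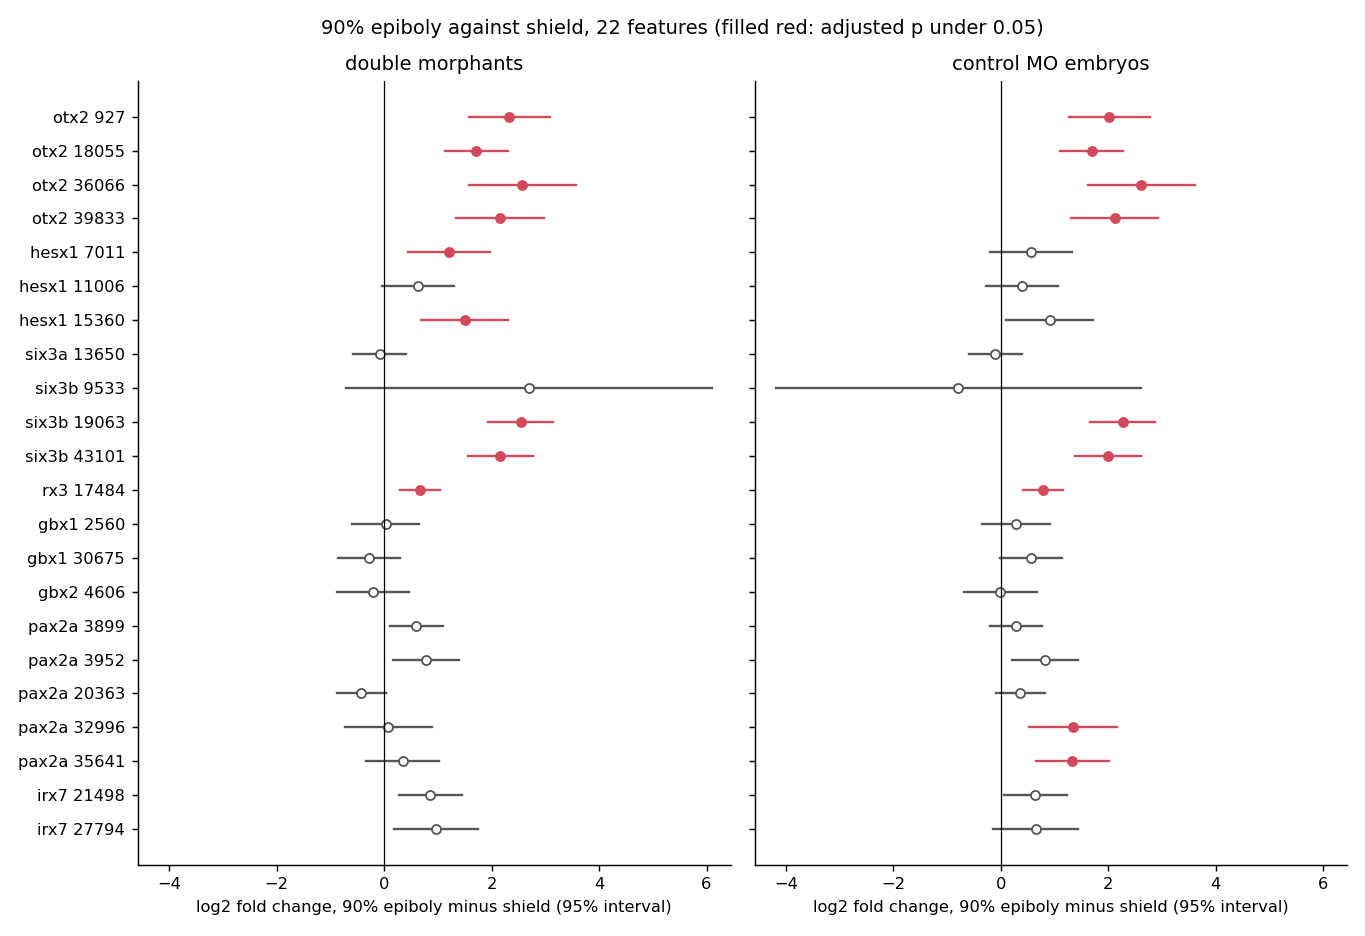
Log2 fold change of 90% epiboly against shield (horizontal axis, with 95% intervals from limma) for each of the 22 features (vertical axis), in double morphants on the left and control MO embryos on the right. Filled red points passed the test and open points did not. All 4 *otx2* features, *six3b* features 19063 and 43101 and *rx3* passed in both panels, with changes between 0.68 and 2.62.

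The loss of Ta and Tbx16 changed no feature of the 9 genes past the threshold at 90% epiboly or at shield. At 90% epiboly limma called 0 of the 22 features (lowest adjusted p = 0.482), where 5 had an unadjusted p under 0.05 and 0.705% of all features were called. At shield it called 0 of 22 (lowest adjusted p = 0.301), where 4 had an unadjusted p under 0.05 and 0.484% of all features were called. The unadjusted threshold was passed by 5.65% of all features at 90% epiboly and by 8.96% at shield. The methods' t-test, also adjusted over all features, called 0 at either stage, with 7 features at an unadjusted p under 0.05 at 90% epiboly, against 7.59% of all features, and 2 at shield, against 6.01%. At 90% epiboly the 3 double morphant arrays lay all above the 3 control arrays for 7 features and all below for 1, against 14.1% of all features that did not overlap. At shield they lay all above for 3 and all below for 3, against 11.6% of all features. The median log2 change over the 22 features was 0.13 at 90% epiboly and 0.18 at shield, against 0.00 over all features at each stage.

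*six3a* and *six3b* lay on opposite sides of their controls. *six3a* averaged 7.63 ± 0.16 in double morphants and 6.96 ± 0.28 in control MO embryos at 90% epiboly, and 7.71 ± 0.23 in double morphants and 7.06 ± 0.44 in control MO embryos at shield (SD, n = 3 each). All 3 double morphant arrays lay above all 3 control arrays at each stage. At shield they were barely apart, with 7.53 on double morphant array 3 and 7.52 on control array 1. The log2 change was 0.67 at 90% epiboly, 1.59-fold (adjusted p = 0.482), and 0.65 at shield, 1.57-fold (adjusted p = 0.382, from limma), each with a standard error of 0.23. *six3b* feature 19063 averaged 8.67 ± 0.51 in double morphants and 9.29 ± 0.25 in control MO embryos at 90% epiboly, and 6.12 ± 0.44 in double morphants and 7.02 ± 0.33 in control MO embryos at shield (SD, n = 3 each). Its 3 double morphant arrays lay below all 3 control arrays at shield, while at 90% epiboly array 2 of the double morphants reached into the control range. The log2 change of feature 19063 was -0.63 at 90% epiboly (standard error 0.28, adjusted p = 0.85) and -0.90 at shield, with an adjusted p of 0.301 (limma, standard error 0.28). Feature 43101 changed by -0.63 at 90% epiboly (adjusted p = 0.842) and -0.80 at shield (adjusted p = 0.388). Feature 9533 changed by -0.50 at 90% epiboly and, with the bright value set to missing, by -1.15 at shield (standard error 0.32, adjusted p = 0.217), against -3.99 (standard error 1.58, adjusted p = 0.466) with it. The lower level of *six3b* at shield did not pass the test on any of its features. In double morphants at shield, features 9533, 19063 and 43101 averaged 6.06, 6.12 and 5.81, all under the limit for dim features.

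*hesx1* lay higher in double morphants on all 3 features at 90% epiboly, with no overlap between the groups on any of them. Feature 11006 read 10.33, 10.62 and 10.44 in double morphants, against 9.63, 9.69 and 9.70 in control MO embryos at that stage. At shield it read 10.32, 9.39 and 9.78 in double morphants, against 10.09, 8.64 and 9.11 in control MO embryos. The groups were apart at 90% epiboly and overlapped at shield, where array 1 was the highest in each. The log2 change was 0.79 at 90% epiboly, 1.73-fold (standard error 0.31, adjusted p = 0.69), and 0.55 at shield (standard error 0.31, adjusted p = 0.649, from limma). Features 15360 and 7011 changed by 0.72 and 0.45 at 90% epiboly, and by 0.13 and -0.20 at shield. Feature 11006 passed at 90% epiboly, narrowly, with the replicate block, with only the arrays of that stage and with array weights. It passed under no other alternative, and not with any 1 array left out. With only the 6 arrays of that stage in the fit its adjusted p was 0.0444, where 0.739% of all features were called. With array weights its change was 0.82 (adjusted p = 0.0452) and *six3a* also passed (a change of 0.81, adjusted p = 0.014, from limma), where 2.50% of all features were called.

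The 4 *otx2* features lay 0.38 to 0.48 higher in double morphants at 90% epiboly and 0.17 to 0.46 higher at shield, and none passed (standard errors 0.27 to 0.46). *rx3* was close to its controls, with a change of -0.09 at 90% epiboly (95% interval -0.47 to 0.28) and of 0.02 at shield (-0.35 to 0.39). *irx7* changed by 0.16 and 0.50 on its 2 features at 90% epiboly and by -0.06 and 0.18 at shield. *gbx1* feature 2560 changed by 0.06 at 90% epiboly and 0.32 at shield, *gbx1* feature 30675 by -0.41 and 0.43, and *gbx2* by 0.09 and 0.29. Of these, the 3 arrays of the double morphants lay all above those of control MO embryos for *otx2* features 927 and 18055 and *irx7* feature 27794 at 90% epiboly and for *gbx1* feature 30675 at shield.

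The *pax2a* features did not move together. At 90% epiboly feature 35641 changed by -0.81 (standard error 0.32, adjusted p = 0.688), feature 32996 by -0.77 (standard error 0.38, adjusted p = 0.927), feature 20363 by -0.36, feature 3952 by -0.24 and feature 3899 by 0.26. At shield the changes lay between -0.20 and 0.49, and none passed. Array 3 of the control MO embryos at 90% epiboly held the highest value of its group for all 5 *pax2a* features.

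**Figure D3:**
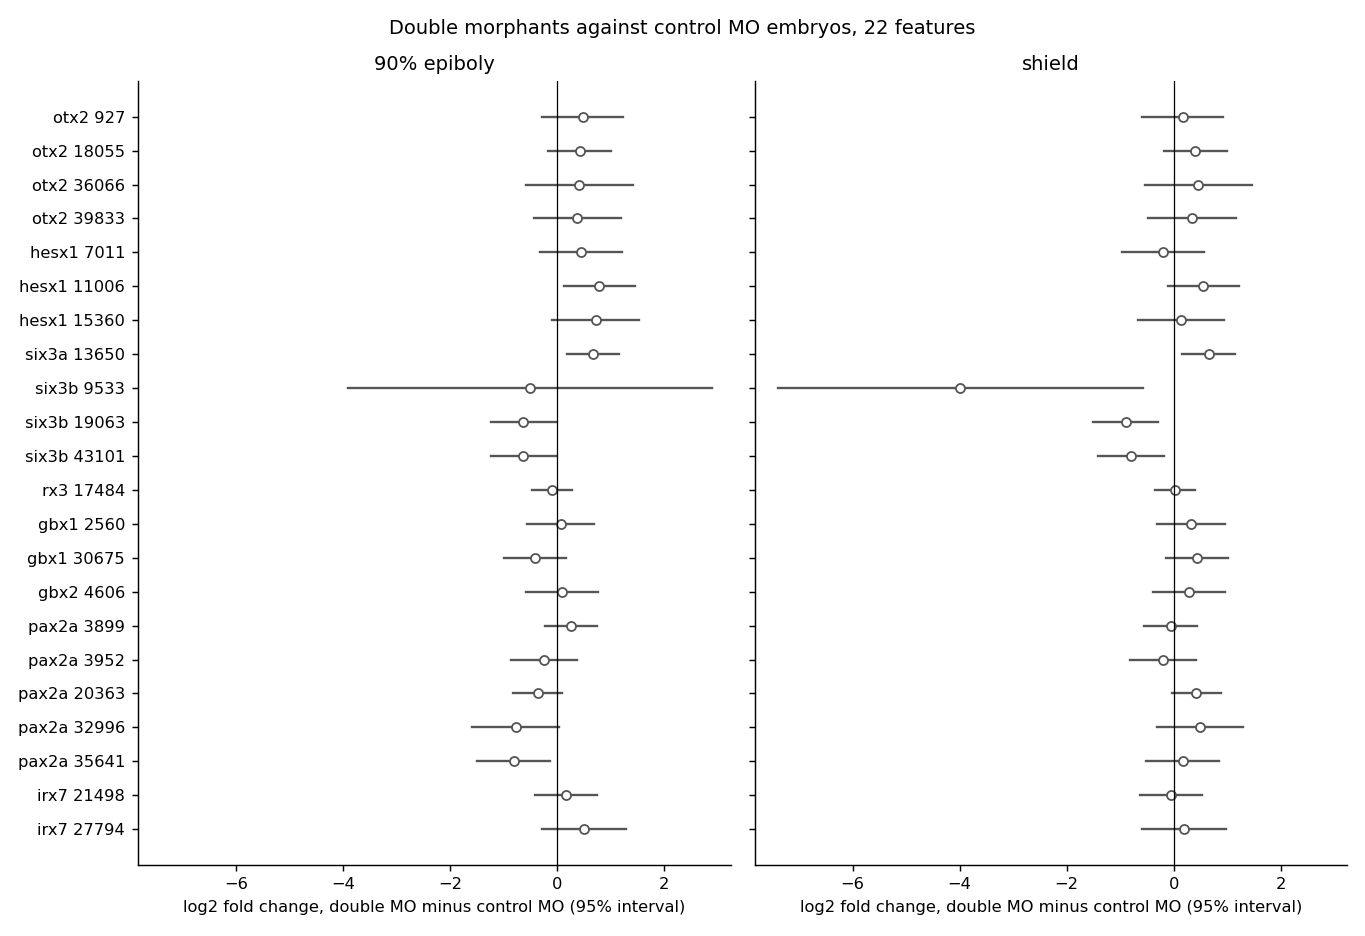
Log2 fold change of double morphants against control MO embryos (horizontal axis, with 95% intervals from limma) for each of the 22 features (vertical axis), at 90% epiboly on the left and at shield on the right. Open points did not pass the test. *six3a* sits at 0.67 and 0.65 and *six3b* features 19063 and 43101 between -0.90 and -0.63, and the wide interval of *six3b* feature 9533 comes with its single value of 15.72.

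The difference between the knockdown changes at the 2 stages was tested as the interaction of stage and MO, which is also the difference between the stage changes of the 2 kinds of embryo. limma called 0 of the 22 features (all adjusted p = 1.00), against 0.287% of all features, and 4 had an unadjusted p under 0.05, against 3.77% of all features: *gbx1* feature 30675 (-0.84) and *pax2a* features 20363 (-0.78), 32996 (-1.26) and 35641 (-0.98), each a log2 difference of 90% epiboly minus shield. For *six3a* the interaction was 0.02 (95% interval -0.67 to 0.71) and for *hesx1* feature 11006 it was 0.24 (-0.71 to 1.18).

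Since *six3a*, *six3b* and *hesx1* feature 11006 each had changes of 1 sign at both stages, the mean of the 2 stages' changes was also fitted. Other features, among them all those of *otx2*, also kept 1 sign, so this trait is not particular to the genes named. The mean of the stages was chosen as a comparison after the values were seen, so it is a description of the same data and not further evidence. It called 0 of 22 features, against 1.43% of all features, with 4 at an unadjusted p under 0.05, against 10.4%. The mean change was 0.66 for *six3a* (standard error 0.16, adjusted p = 0.0708), -0.76 for *six3b* feature 19063 (standard error 0.20, adjusted p = 0.0956), -0.72 for *six3b* feature 43101 (standard error 0.20, adjusted p = 0.128) and 0.67 for *hesx1* feature 11006 (standard error 0.22, adjusted p = 0.22, all from limma). With the replicate number as a block within each stage 3 features passed (*hesx1* feature 11006 with adjusted p = 0.0119, *six3a* with 0.0161 and *six3b* feature 19063 with 0.0455, from limma), where 2.46% of all features were called. Without both shield arrays numbered 1, *hesx1* feature 11006 (0.75, adjusted p = 0.0194) and *six3a* (0.71, adjusted p = 0.0336, from limma) passed, where 1.42% were called.

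Other genes listed for the same regions were read as well, with the brightest feature standing for each gene. Where in the whole embryo a list gene was expressed was not measured, so its signal need not come from the region its list names. The lists were chosen with earlier results of these data known. Of 25 other genes of the forebrain and eye field, 22 were on the array, and 0 passed in either direction in double morphants against control MO embryos at 90% epiboly (median log2 change -0.04) or at shield (median -0.10). Of 25 other genes of the midbrain and the midbrain-hindbrain boundary, 23 were on the array, and 0 passed at either stage (median -0.10 at 90% epiboly and 0.07 at shield). In the mean of the 2 stages' changes, fitted after the values were seen, 1 of these 23 was lower and 0 higher. In that fit 0.994% of all genes were lower and 0.655% higher. Over the 9 genes described here, taken by their brightest feature, the median was 0.09 at 90% epiboly and 0.29 at shield, and over all genes it was 0.01 and 0.02. Of all genes, 0.218% were higher and 0.572% lower at 90% epiboly, and 0.286% were higher and 0.263% lower at shield. With shares this low, a count of 0 in lists of this size says nothing particular about these genes.

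Some genes of further lists did pass in the knockdown comparisons. Among 15 hindbrain genes on the array, *meis3* and *meis1b*, which encode cofactors of Hox proteins, fell by 1.44 (adjusted p = 0.00285) and 1.70 (adjusted p = 0.0201) on the log2 scale in double morphants at 90% epiboly, and 0 passed at shield. Among 11 genes listed as antagonists of Wnt signaling in the head, *axin2*, a feedback inhibitor that Wnt signaling itself induces, fell by 1.16 in double morphants at 90% epiboly (adjusted p = 0.018), and 0 passed at shield. Among 18 genes of the early neural plate, *zic2a*, a zinc-finger gene, fell by 1.18 in double morphants at shield (adjusted p = 0.00802), and 0 passed at 90% epiboly (all adjusted p from limma). None of *meis3*, *meis1b*, *axin2* and *zic2a* passed the interaction of stage and MO, so no difference between the stages was shown. The lowest adjusted p among them was 0.0613, for *meis3* (limma).

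With stage, 4 of the 22 other forebrain and eye field genes were higher and 1 was lower at 90% epiboly in double morphants, and 4 were higher and 0 lower in control MO embryos. Of all 13286 genes, 1048 were higher and 1094 lower in double morphants, and 956 were higher and 1101 lower in control MO embryos. *six7*, a further gene of the six3 family, rose by 2.81 in double morphants and 2.42 in control MO embryos. *fezf2*, a zinc-finger gene of the forebrain, rose by 2.27 in double morphants and 2.22 in control MO embryos, and *pax6b*, a paired-box gene of the eye and forebrain, by 2.20 in double morphants and 2.18 in control MO embryos. *otx1* rose in double morphants (1.95, adjusted p = 0.00888) and changed by 1.33 in control MO embryos (adjusted p = 0.0558), while *sp8b* rose in control MO embryos (1.82, adjusted p = 0.00375) and changed by 0.28 in double morphants (adjusted p = 0.657). *emx2* fell by 0.76 in double morphants (adjusted p = 0.0222, from limma). None of *otx1*, *sp8b* and *emx2* passed the interaction of stage and MO. Of the 23 other midbrain and boundary genes, 2 were higher and 1 lower in double morphants and 3 were higher and 1 lower in control MO embryos. The ligand gene *fgf17* fell by 1.76 in double morphants and by 1.14 in control MO embryos. *dmbx1a*, a homeobox gene of the midbrain, rose by 0.87 in double morphants and 0.79 in control MO embryos. Of the 15 hindbrain genes, 5 were higher and 1 lower in double morphants, and 6 higher and 2 lower in control MO embryos. Of the 11 head Wnt antagonist genes, 3 were higher and 0 lower in double morphants, and 3 higher and 1 lower in control MO embryos. Of the 18 early neural plate genes, 2 were higher and 2 lower in double morphants, and 2 higher and 5 lower in control MO embryos.

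Among the markers of other tissues in the whole embryo, mainly those of the paraxial mesoderm passed the test in the knockdown comparisons. Of 7 paraxial mesoderm markers, 6 fell in double morphants at 90% epiboly and 5 at shield. Their summed level lay between 10.13 and 10.26 in double morphants and 13.70 and 13.96 in control MO embryos at 90% epiboly, and between 10.13 and 10.25 in double morphants and 12.85 and 13.33 in control MO embryos at shield (log2 of the sum of 7 signals). Of the markers of the axial mesoderm, prechordal plate, endoderm, enveloping layer, yolk syncytial layer and germ cells, 1 passed at each stage, *tbxta*, which was higher in double morphants. In the mean of the 2 stages' changes, 1 axial mesoderm marker was higher and 2 were lower. The part of these shifts in the values of the 9 genes was not tested.

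**Figure D4:**
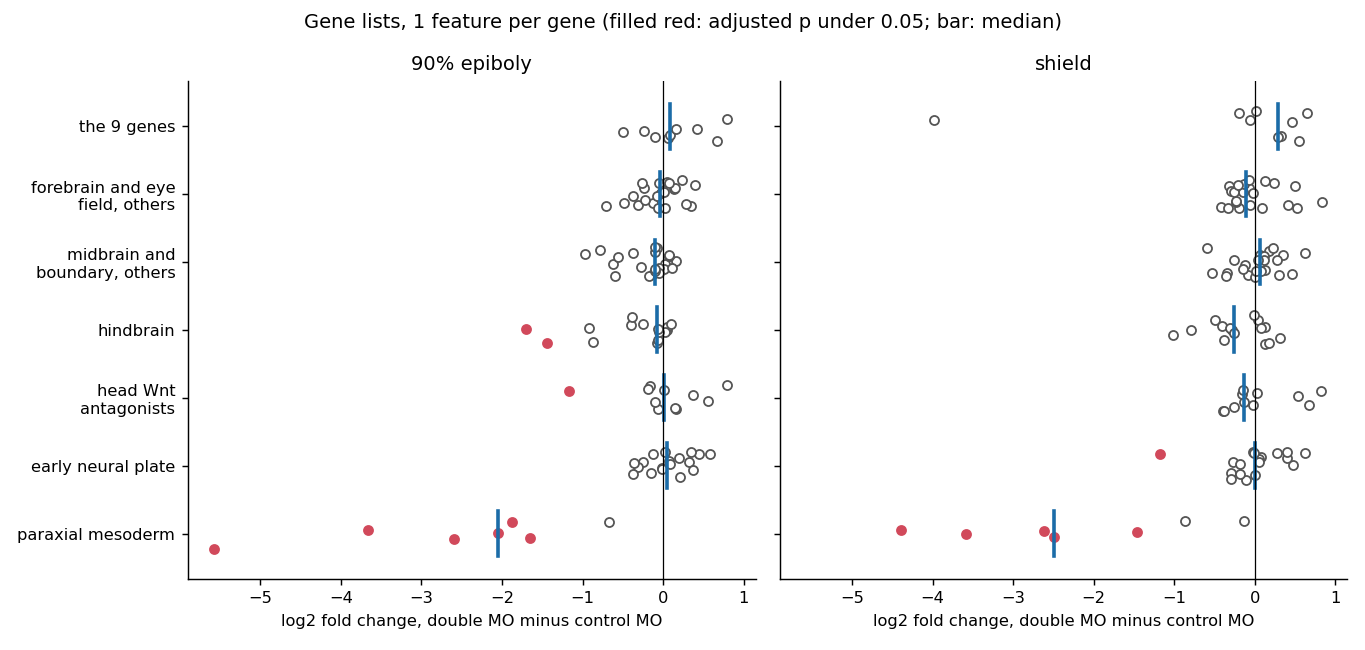
Log2 fold change of double morphants against control MO embryos (horizontal axis) for the genes of each list (vertical axis), with 1 feature per gene, at 90% epiboly on the left and at shield on the right. Filled red points passed the test, open points did not, and blue bars are list medians. The 9 genes and the other forebrain and midbrain genes hold no filled point, while the paraxial mesoderm markers have medians of -2.06 at 90% epiboly and -2.49 at shield.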

How the data were processed

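Whole AB embryos in 4 groups of 3 samples were profiled on single-dye Agilent zebrafish V3 arrays. The authors deposited log2 values of 45220 features per array (4.79 to 16.2), already normalized between arrays. How background was corrected, how arrays were normalized and with which software is not given in the sources used here. Scanner files were not used. The number of arrays limits the precision. Within groups, arrays correlated at 0.966 to 0.990.

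Of the features, 26855 carried 1 gene symbol and 18365 none. Symbols were updated through a RefSeq gene table (24108 by accession, 2734 by symbol, 13 kept as on the array). No genome or probe sequence was used, so no coordinates or sequences are given.

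All 12 arrays were fitted in R 4.3.3 by limma 3.58.1 (lmFit, then contrasts.fit and eBayes; 1 mean per group, 8 residual degrees of freedom, 5.32 from the prior), with Benjamini-Hochberg adjustment over all features, a threshold of 0.05 and no filter. There were 5 planned comparisons and 1 added after the data were seen. The code was tested on simulated data. Figures were drawn with matplotlib 3.10.9 in Python 3.11.15.

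The members and lists were chosen with earlier results of these data known. All features of the 9 genes are named. Of the lists, some genes that passed are named, at most 5 per comparison, and the others are only counted. Where 1 feature stands for a gene, it has the highest mean over 12 arrays.

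Shield samples with the same number deviated together from their group means (r = 0.34, 0.35 and 0.30 across features). The numbers may pair these samples, which is a reading of the data, since the labels state no pairing. At 90% epiboly r was 0.20, 0.08 and 0.41. The main fit paired no samples at either stage. The replicate block was an alternative only. It grouped same-numbered samples within each stage for the comparisons of double morphants with control MO embryos, and across stages for the stage comparisons. Same-numbered samples of the 2 stages gave r between -0.20 and 0.08. Alternatives were the replicate block, further quantile or cyclic loess normalization, a trend and robust variance, removal of dim features, weights for arrays, only the arrays of the 2 groups compared, the methods' t-test, each array left out in turn, and, added after the data were seen, both shield arrays numbered 1 removed and the brightest *six3b* value set to missing.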

Additional observations from a re-analysis of the deposited data

Results flagged for a closer look

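For *pax2a* feature 20363 the 3 double morphant arrays lay on opposite sides of the controls at the 2 stages. They read 5.57, 5.67 and 5.62 in double morphants, against 5.82, 5.96 and 6.17 in control MO embryos at 90% epiboly, and 5.69, 5.85 and 6.60 in double morphants, against 5.65, 5.65 and 5.57 in control MO embryos at shield. The difference between the knockdown changes, 90% epiboly minus shield, was -0.78 on the log2 scale (unadjusted p = 0.0201, adjusted p = 1.00 from limma). The difference fails the correction, the feature is dim, and the other 4 *pax2a* features did not show this pattern without overlap.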

How the results depend on the processing

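Counts are of the 22 features called. In double morphants against control MO embryos at 90% epiboly, where the count was 0, it was 1 with the replicate block, 1 with only the arrays of the 2 groups compared and 2 with array weights, and *hesx1* feature 11006 passed in each (adjusted p = 0.0497 with the block). The calls over all 45220 features were 319, and 466, 334 and 1129 under those alternatives. At shield and for the interaction it was 0 under every alternative run. For 90% epiboly against shield, where the count was 9 in each kind of embryo, the methods' t-test after adjustment called 0 in double morphants and 0 in control MO embryos, with 11 and 8 at an unadjusted p under 0.05. Over all features it called 473 and 128 after adjustment, with 22.8% and 20.3% at an unadjusted p under 0.05. In double morphants and control MO embryos the counts were 10 and 9 with the replicate block, which added *irx7* feature 21498 (adjusted p = 0.0394), 10 and 7 with only the arrays of the 2 groups, and 11 and 12 with array weights. The calls over all features were 5914 and 5773 in the main fit, and 6401 and 6173 with the replicate block. They were 5444 and 4526 with only the arrays of the 2 groups, and 7482 and 9025 with array weights. The higher counts with array weights thus came with more calls over all features. Leaving out 1 array gave 6 to 11 in double morphants (6.62% to 14.8% of all features) and 8 to 14 in control MO embryos (7.15% to 13.7%). The 14 came without shield control array 1, where 13.7% of all features were called. Leaving out both shield arrays numbered 1 gave 12 and 15 (16.2% and 15.4% of all features). For the mean of the 2 stages, where the count was 0, it was 3 with the replicate block (2.46% of all features), 2 with array weights (2.06%) and 2 without both shield arrays numbered 1 (1.42%). It was 0 to 2 without 1 array (1.01% to 1.46% of all features), the 2 without shield control array 1 (1.46%). The change of *six3b* feature 9533 with stage in control MO embryos was -0.79 as deposited and 2.05 with its bright value set to missing (adjusted p = 0.00132), and over single arrays left out its adjusted p ran from 0.00238, without that array, to 0.885. In double morphants against control MO embryos at shield, the replicate block changed the call of no member feature.

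Quantile and cyclic loess normalization were run on values that were already normalized, so they do not replace the deposited normalization. Low values come in coarse steps (3760 to 8028 distinct values per array). The t-test and the fit of 2 groups were not run for the interaction and the mean of the 2 stages, which need all 4 groups.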

Other observations

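The genes whose brightest feature followed that of a member most closely across the 12 arrays are given as a description, with no test, since the arrays share 2 stages and any gene with a stage change correlates with any other. For *otx2* these were *apoa2*, *abhd12* and *itih2* (r = 0.99 each), for *rx3* they were *gata4*, *pimr136* and *crabp2b* (r = 0.97 each), and for *pax2a* *pax3a*, *plp1b* and *crybgx* (r = 0.95, 0.94 and 0.94). For *hesx1* they were *ndufa3*, *commd7* and *prps1b* (r = 0.98, 0.95 and 0.93). For *six3b* the brightest feature is 9533, and they were *rapgef6*, *smim24* and *map3k12* (r = 0.86, 0.85 and 0.84), with its value of 15.72 on a single array included. Among the members themselves, *otx2* correlated with *irx7* at r = 0.94 and with *rx3* at r = 0.89.

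At 90% epiboly, array 2 of the double morphants held the highest of its group's 3 values in 14 of the 22 features, array 1 the lowest in 16, and array 3 of the control MO embryos the highest in 13. Features of the same gene are not separate readings, and no such count over all features is given here.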
